A study of Schizosaccharomyces pombe with 6 samples.

Results

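The large-subunit ribosomal protein genes of Schizosaccharomyces pombe, the fission yeast, were followed in small RNA from Ago1 pull-downs. They were found by matching each feature ID of the count tables to its standard gene symbol and keeping symbols made of rpl or rpp and digits, which left out the mitochondrial mrpl genes. The rule found 84 of 6878 features. Of these, 81 were annotated as ribosomal and 3 (rpp1, rpp21 and rpp40) as subunits of RNase P or RNase MRP, RNA-cutting enzymes whose symbols share the prefix. Those 3 had 0 to 18 reads in any library, did not pass the filter on low counts, and were set aside. The annotation calls rpl701 a ribosomal protein L7-like subunit of RNase MRP and rpl44 a protein with an L28e family domain, and both were kept. By its wording the rule leaves out rpl35A01 and rpl35A02 and the ubiquitin fusion genes ubi1 and ubi2, which also encode large-subunit proteins.

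There were 2 groups of 3 libraries, all from a wild-type strain given as 975 h+. The 24h group was taken 24 h after a shift to nitrogen-free EMM, a minimal medium, and the 0h group was growing in supplemented EMM before the shift, both at 32 °C. In both groups RNA was recovered on beads that bind the FLAG peptide, and species of 20 to 30 nucleotides were cut from a gel. No FLAG-tagged Ago1 allele and no mock pull-down are named in the labels, so that the RNA was bound to Ago1 rests on the labels.

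The large ribosomal subunit joins amino acids into protein, and its proteins fold around the large ribosomal RNAs. Most of them are encoded in fission yeast by 2 or 3 gene copies, numbered 01, 02 and 03. The genes are among the most strongly transcribed of a growing yeast cell, and starvation for nitrogen lowers ribosome production through the TOR kinase pathway. Ago1 is the only Argonaute of this yeast and serves RNA interference; it carries small RNAs made by Dicer from double-stranded RNA, and also some fragments of ordinary transcripts. The counts here are small RNA reads over the genes and not levels of their mRNA.

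The libraries held 54393, 249986 and 758789 reads assigned to features at 24h, and 48040, 112578 and 145861 at 0h. Reads set aside for low mapping quality were 90.3 to 96.4% of the aligned reads. Among uniquely placed reads, the 24h libraries had 47.0% ± 4.92 in no feature and the 0h libraries 88.0% ± 4.63 (mean and SD, n = 3 each). Protein-coding genes took 82.8% ± 2.08 of the reads assigned to features in 24h libraries and 44.7% ± 2.54 in 0h libraries. Because the makeup of the libraries differed this much, directions below hold for TMM scaling, explained with the levels, unless another scaling is named.

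The 81 large-subunit genes held about the same small share of the assigned reads in all libraries but 1. They took 1.79%, 2.92% and 1.89% at 24h, with Wilson 95% intervals of 1.68 to 1.90, 2.86 to 2.99 and 1.86 to 1.92. At 0h they took 1.59%, 1.78% and 1.52%, with intervals of 1.48 to 1.70, 1.71 to 1.86 and 1.46 to 1.58. Replicate 2 of 24h stood apart from the rest, and the lowest 24h library was within the interval of the highest 0h library. The mean share was 2.20% ± 0.628 at 24h and 1.63% ± 0.135 at 0h, a ratio of 1.35, or 1.13 without 24h replicate 2. As a share of the reads in protein-coding genes the order turned round, with 2.65% ± 0.703 at 24h and 3.65% ± 0.261 at 0h, a ratio of 0.726. Relative to aligned reads, the genes held 865 ± 620 reads per 1e6 at 24h and 86.4 ± 6.79 at 0h, a 10.0-fold higher mean at 24h. The direction of the large-subunit total therefore depended on what it was set against, and the libraries, being bulk, cannot tell fewer cells with such RNA from less RNA per cell.

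**Figure D1:**
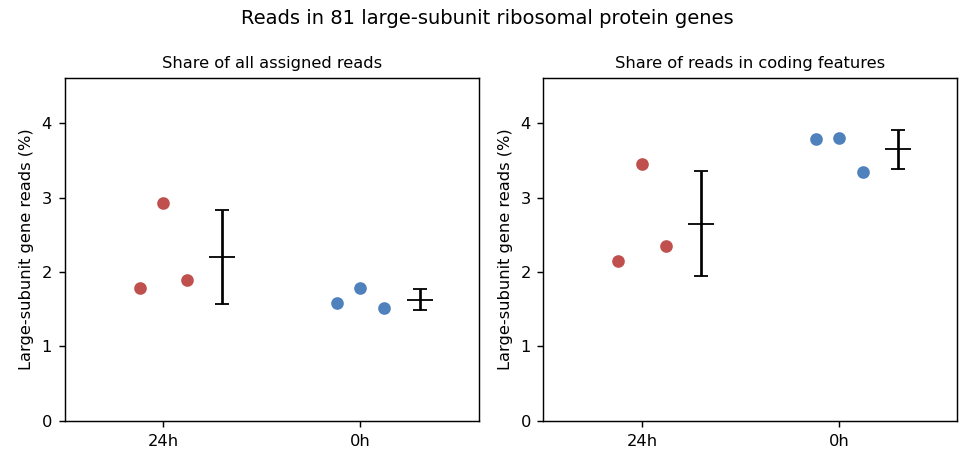
Percent of reads in the 81 large-subunit genes in each library (points; bars are mean and SD, n = 3), at left among all reads assigned to features and at right among reads in coding features. The mean was higher at 24h on the left (2.20% at 24h, 1.63% at 0h) and lower at 24h on the right (2.65% at 24h, 3.65% at 0h), and 24h replicate 2 lay above its group in both.

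Reads were spread over nearly all of the genes. Of the 81, 78 had reads in all 6 libraries, with 40 to 1741 reads per gene over all libraries and a median of 269. The 5 genes with the most reads in each library held 24.0 to 27.7% of the large-subunit reads at 24h and 20.6 to 29.6% at 0h. Per kilobase of exon, the median large-subunit gene had 271 CPM (reads per 1e6 assigned reads, scaled by TMM factors, which set aside features of extreme ratio) at 24h and 340 at 0h, while the median of 5107 protein-coding genes was 19.8 at 24h and 21.4 at 0h. At 24h 80 of the 81 genes, and at 0h all 81, were above that coding median.

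A few genes led the others. The highest level per kilobase in both groups belonged to rpl22, which encodes the eL22 protein at the surface of the subunit, with 1880 ± 892 CPM per kb at 24h and 3271 ± 1605 at 0h. Its CPM was 1165, 431 and 1247 at 24h, against 1415, 982 and 2548 at 0h, so the groups overlapped. The most CPM at 24h belonged to rpl701, with 836, 2143 and 755, against 1295, 908 and 673 at 0h. The 24h replicate 2 was high for rpl701 and low for rpl22; without rpl701 that library's large-subunit share was 2.58%, and the ratio of mean shares was 1.30. Next came rpl8, the eL8 protein and no copy of the rpl801 to rpl803 genes, with 794 ± 74.0 CPM at 24h and 908 ± 104 at 0h. The eL13 gene rpl13 had 652 ± 33.6 CPM at 24h and 674 ± 281 at 0h. None of these 4 passed the test between groups. At the low end per kilobase were rpl1603, rpl1201 and rpl1002 at 24h, at 18.0, 42.0 and 42.8 CPM per kb, and rpl1201, rpl3002 and rpl1603 at 0h, at 22.8, 36.4 and 42.5 CPM per kb. For rpl1201 and rpl1002 much of the sequence is shared with a copy. Per kilobase of exon whose 22-base windows occur once in the genome, rpl1201 had 308 CPM at 24h and 167 at 0h, and rpl1002 had 109.7 at 24h and 172 at 0h, while rpl1603 had 18.3 at 24h and 43.2 at 0h.

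Between the groups, most large-subunit genes moved little. Of the 81, 73 had enough reads to be tested, and 8 did not (rpl102, rpl1002, rpl1201, rpl1202, rpl2702, rpl3002, rpl3402 and rpl3702, with 40 to 157 reads each over all libraries). With edgeR's quasi-likelihood test on TMM-scaled counts and Benjamini-Hochberg adjustment over all 1716 tested features, 5 genes were lower at 24h, 0 were higher and 68 did not pass an adjusted p of 0.05. At an unadjusted p under 0.05 the counts were 9 lower and 2 higher. The 5 calls are 6.85% of the tested large-subunit genes, while 25.9% of all tested features passed, 12.8% as lower and 13.1% as higher. DESeq2, as an alternative, called 0 higher and 1 lower (rpl3801), where it called 4.85% of the 4165 features it tested lower.

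The fold changes of the large-subunit genes spanned a narrower range than those of all tested features. The sets were not matched for read counts, and the part of that in the narrower range was not tested. The middle 50% of the large-subunit genes ran from -0.51 to 0.04 on the log2 scale, against -0.66 to 0.82 for all tested features, and 69 genes (94.5%) lay within 1 log2 unit of no change, against 62.9% of all tested features. The median was -0.20 for the large-subunit genes and -0.02 for all tested features. Of the 73, 54 had a negative and 19 a positive fold change, from -3.09 for rpl3801 to 0.98 for rpl702, with standard errors (SE) of 0.30 to 0.57. These signs depend on the scaling: with library totals in place of TMM 62 of the 73 were positive and their median was 0.54 against 0.69 for all features, and with aligned reads all 73 were positive and their median was 3.36 against 3.55. The large-subunit median was below that of all features under these 3 scalings, by 0.16 to 0.19. On library totals 3 large-subunit genes were called higher and 1 lower, while 33.1% of all tested features were higher and 5.54% lower (38.6% together). On aligned reads 72 were called higher and 0 lower, while 93.9% of all tested features were higher and 0.233% lower (94.1% together).

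Of the same 73 genes, 17 (23.3%) had CPM values that did not overlap between the groups, 14 lower and 3 higher at 24h. Among all tested features 44.0% did not overlap, 19.7% lower and 24.3% higher. The 3 higher genes were rpl401, rpl1101 and rpp0, and none of them passed the adjusted test.

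**Figure D2:**
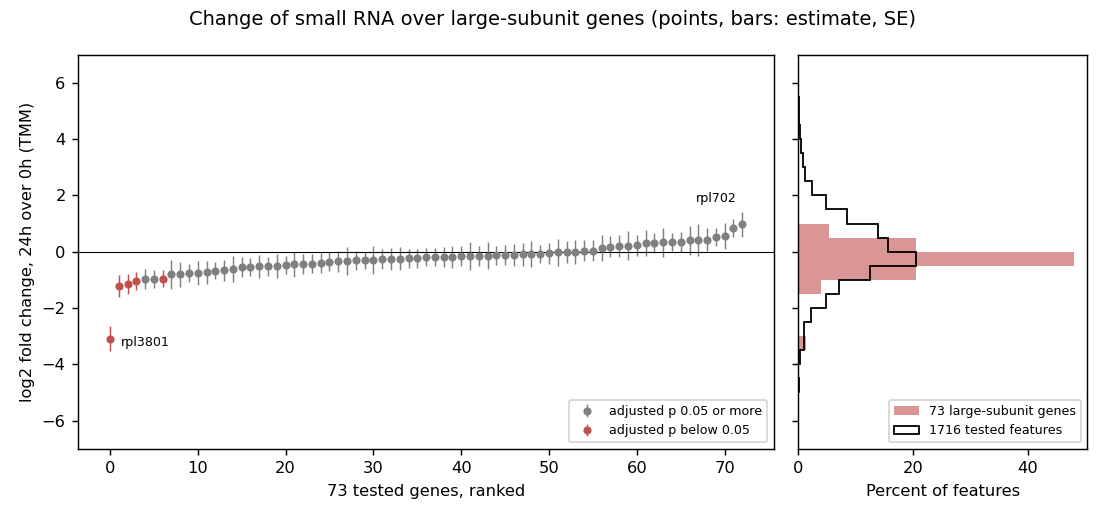
At left, log2 fold change of 24h over 0h for the 73 tested large-subunit genes in rank order (points, with SE as bars; red points passed an adjusted p of 0.05). At right, the percent of large-subunit genes (filled) and of all 1716 tested features (line) in bins of the same axis; the large-subunit genes crowd just below 0, with 94.5% of them within 1 log2 unit, and rpl3801 at -3.09 lies apart.

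The gene that stood apart was rpl3801, a copy of the gene for eL38, a small protein of the large subunit that in mouse is needed for normal patterning of the skeleton. Small RNA over rpl3801 (SPBC577.02) was 74.7, 70.5 and 181 CPM at 24h, against 903, 1077 and 963 CPM at 0h. The raw reads behind these were 5, 28 and 150 at 24h and 30, 102 and 113 at 0h. All 3 libraries of 24h were far below all 3 of 0h, with means of 109 ± 62.5 CPM at 24h and 981 ± 88.1 at 0h, a log2 fold change of -3.09 (SE 0.45, edgeR adjusted p = 0.00161). At 0h it was, per kilobase, the second of all large-subunit genes, with 2756 ± 248 CPM per kb. It remained lower when any 1 library was left out, with log2 fold changes of -3.80 to -2.80 and edgeR adjusted p of 0.000863 to 0.00875. It was also called lower by DESeq2 and on library totals (log2 fold change -2.44). Only against aligned reads did it fail the test, at 0.17 where the median of all features was 3.55.

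Its copy rpl3802 (SPAC30D11.12), which also encodes eL38, was at a like level in both groups. It had 89.6, 116 and 115 CPM at 24h, against 120.5, 158 and 93.8 CPM at 0h, and the groups overlapped (log2 fold change -0.16, SE 0.36, edgeR adjusted p = 0.814). Within each library, rpl3801 had fewer reads than rpl3802 in 2 of the 3 libraries at 24h and more in all 3 at 0h. The log2 ratio of rpl3801 to rpl3802 was -0.24, -0.71 and 0.66 at 24h, against 2.76, 2.73 and 3.30 at 0h. This ratio needs no scaling between libraries, and its mean differed by -3.03, between -3.40 and -2.72 when any 1 library was left out. An exact permutation test gave p = 0.10, the smallest that 3 against 3 libraries allow.

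The other 4 genes that passed were lower by about 1 log2 unit each. They encode the uL13 protein (rpl1603), an L28e domain protein (rpl44), eL18 (rpl1802) and uL23, which lies at the exit of the peptide tunnel (rpl2501). Small RNA over rpl1603 was 44.8, 57.9 and 39.8 CPM at 24h, against 120.5, 106 and 111 CPM at 0h, a log2 fold change of -1.22 (SE 0.38, edgeR adjusted p = 0.0370). For rpl44 it was 44.8, 113 and 86.8 CPM at 24h, against 241, 201 and 179 CPM at 0h, or -1.15 (SE 0.36, edgeR adjusted p = 0.0364). All 6 libraries of these genes kept the groups apart. However, rpl1603 met the filter on low counts mainly through the 0h libraries, so its direction is uncertain. With no filter its log2 fold change was -0.88 (edgeR adjusted p = 0.281).

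For rpl1802 the values were 179, 259 and 272 CPM at 24h, against 512, 581 and 418 CPM at 0h, a log2 fold change of -1.05 (SE 0.32, edgeR adjusted p = 0.0354). For rpl2501 they were 164, 242 and 222 CPM at 24h, against 392, 443 and 409 CPM at 0h, or -0.96 (SE 0.31, edgeR adjusted p = 0.0403). These 4 calls were close to the threshold. When 1 library was left out, rpl2501 and rpl1603 each lost the call in all 6 cases, with adjusted p of 0.0586 to 0.177 for rpl2501 and 0.0560 to 0.111 for rpl1603. rpl44 lost it in 5 of 6 (0.0618 to 0.111) and rpl1802 in 4 of 6 (0.0646 to 0.165).

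**Figure D3:**
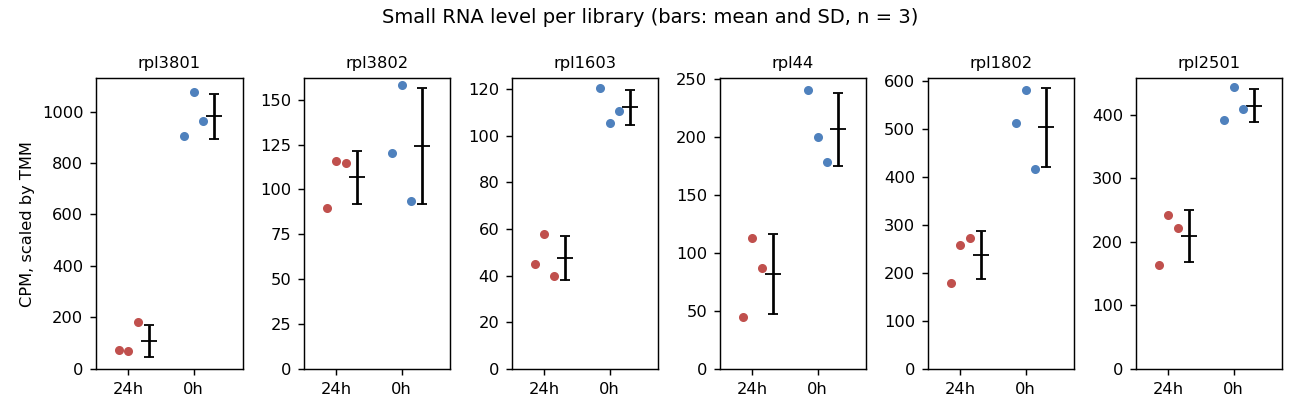
CPM scaled by TMM in each library (points; bars are mean and SD, n = 3) for the 5 large-subunit genes called lower at 24h and for rpl3802, the copy of rpl3801. Each panel has its own axis from 0; the groups do not overlap for the 5 called genes, and for rpl3802 they do (107 ± 14.8 CPM at 24h, 124 ± 32.5 at 0h).

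Just outside the threshold were rpl31, for eL31 (log2 fold change -0.97, edgeR adjusted p = 0.0537), and rpl39, for eL39, a protein of the peptide tunnel (-0.98, edgeR adjusted p = 0.0698). The largest positive values were those of rpl702, for uL30, at 0.98 (SE 0.44, edgeR adjusted p = 0.126), and rpl401, for uL4, at 0.84 (SE 0.33, edgeR adjusted p = 0.0813), followed by rpl1702 at 0.56. However, rpl1702 met the filter on low counts mainly through the 24h libraries, so its direction is uncertain. When 1 library was left out, rpl702 ran from 0.48 to 1.32, rpl1702 from 0.12 to 1.23 and rpl401 from 0.69 to 0.94. The lowest values of rpl702 and rpl1702 came without 0h replicate 3. In that fit rpl1601 had the largest value, 1.00. It met the filter there through the 24h libraries, so no direction is read from it. For rpl401 the groups did not overlap, with 329, 290 and 288 CPM at 24h, against 211, 137 and 170 CPM at 0h. For rpl702 they did, with 224, 325 and 215 CPM at 24h, against 241, 137 and 68.2 CPM at 0h.

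The stalk of the large subunit, which recruits the translation factors, is built on P0 (rpp0) with the acidic P1 (rpp101 to rpp103) and P2 (rpp201 to rpp203) proteins. None of its 7 genes passed the test. The gene rpp0 had 642, 577 and 631 CPM at 24h, against 452, 465 and 528 CPM at 0h, so the groups did not overlap, with a log2 fold change of 0.35 (SE 0.33, edgeR adjusted p = 0.461). The P1 genes rpp101, rpp102 and rpp103 had log2 fold changes of -0.20, -0.50 and -0.18. The P2 genes rpp201, rpp202 and rpp203 had -0.13, 0.42 and -0.29. Each of these 6 overlapped between the groups.

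Gene copies were compared next. Of the 81 genes, 68 belong to 32 families with 2 or 3 copies, which give 40 pairs, and 13 are single. The single genes had a median log2 fold change of -0.45, with 1 of 13 called lower (rpl44), and the copied genes had -0.19, with 4 of 60 tested called lower. In each library the log2 ratio of the lower-numbered to the higher-numbered copy was taken with 0.5 reads added to each. For 33 of the 40 pairs the mean ratio differed between groups by less than 1 log2 unit, and the median size of the difference was 0.63. Ratios did not overlap between groups for 8 pairs (20.0%), each at the smallest exact permutation p of 0.10. The same count for 2 large-subunit genes of different families was 21.8% of 3200 pairs, and for copies of small-subunit genes 34.8% of 23, so the share for large-subunit copies was near that of unrelated genes.

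The largest of the 8 differences was that of rpl3801 and rpl3802. The uL4 pair rpl401 and rpl402 moved the other way. Its log2 ratio was -0.12, -0.59 and -0.37 at 24h, against -1.58, -1.62 and -1.33 at 0h, a difference of 1.15, and 1.04 to 1.27 when any 1 library was left out. The libraries of each group were tight, and the lower-numbered copy was the lesser in all 6. For the uL5 pair rpl1101 and rpl1102 the ratio was 0.94, 0.08 and 0.50 at 24h, against -0.45, -0.52 and -0.74 at 0h. The difference was 1.08, and 0.86 to 1.29 when any 1 library was left out. Here the copy with more reads was rpl1101 in all 24h libraries and rpl1102 in all 0h libraries. The margins were small in places. In 24h replicate 2 rpl1101 had 71 reads and rpl1102 67, and in 0h replicate 1 they had 5 and 7.

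The other 5 differences are given with their range when 1 library was left out. In the uL13 family the ratio of rpl1601 to rpl1603 differed by 1.59 (1.27 to 2.12 with 1 library left out) and that of rpl1601 to rpl1602 by 1.24 (0.82 to 1.58); both rest on the same rpl1601 reads. The ratio of rpl1801 to rpl1802, for eL18, differed by 0.70 (0.45 to 0.91). The ratio of rpl1701 to rpl1702 (uL22) differed by -0.97 (-1.23 to -0.59) and that of rpl2701 to rpl2702 by -0.96 (-1.25 to -0.71). Some of these ratios rest on few reads. In 0h replicate 1 rpl1601 had 2 reads and rpl1603 4, and rpl1701 had 4 and rpl1702 2. Some pairs were uneven in both groups, with ratios that overlapped between them. The ratio of rpl3001 to rpl3002 (eL30) was 2.58 ± 0.50 at 24h and 3.44 ± 1.07 at 0h, and that of rpl701 to rpl702 was 2.13 ± 0.51 at 24h and 2.75 ± 0.44 at 0h.

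**Figure D4:**
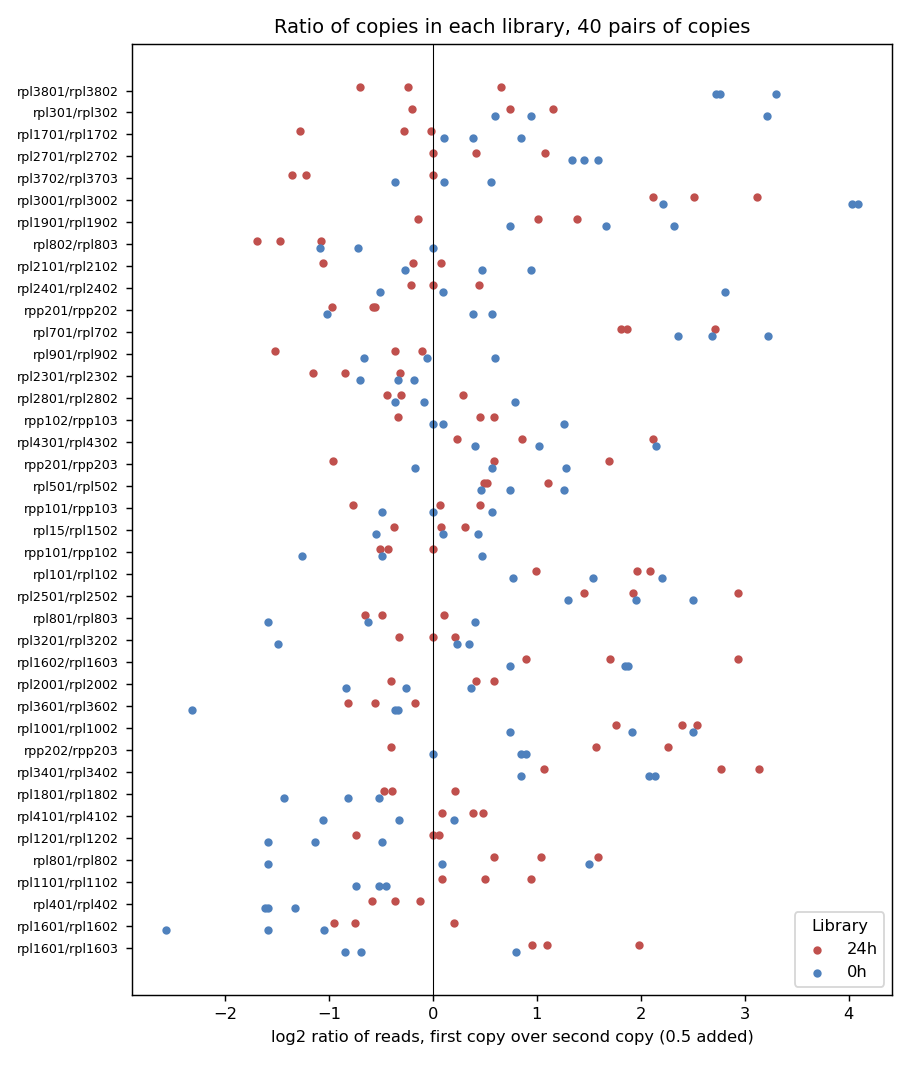
Log2 ratio of reads between copies in each library, 1 row per pair, 40 pairs, with 24h points in red and 0h points in blue, ordered by the difference of group means. In rpl3801/rpl3802 (top) the 24h points lie between -0.71 and 0.66 and the 0h points between 2.73 and 3.30; most other rows overlap.

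Copies that share sequence can be under-counted, since reads of low mapping quality were set aside. Windows of 22 bases along the exons were therefore looked up in the ASM294v3 genome, and the percent found only once was taken as a gene's uniqueness. It ran from 14.2% for rpl1201 to 100%, with a median of 98.5%, and 25 genes were at 100%. The 12 genes under 80% are a larger fraction of the 81 than the 2.92% of all 5105 protein-coding genes. The lowest were the uL11 copies rpl1201 (14.2%) and rpl1202 (26.2%), the uL3 copies rpl301 (31.0%) and rpl302 (41.8%), and the uL16 copies rpl1002 (40.1%) and rpl1001 (47.4%).

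The median level of the 12 was 133 CPM per kb at 24h and 228 at 0h, while that of the other 69 was 304 at 24h and 378 at 0h. Levels and copy ratios of the 6 genes under 50% are uncertain. Both rpl3801 and rpl3802 were at 100%, so their ratio does not rest on shared windows.

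**Figure D5:**
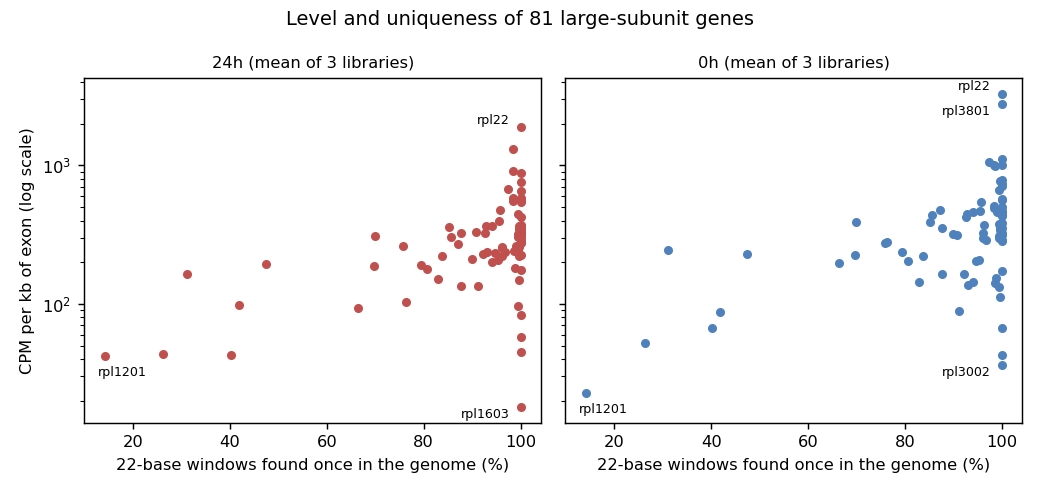
Level of each of the 81 large-subunit genes (CPM per kb of exon, mean of 3 libraries, log scale) against the percent of its 22-base windows found once in the ASM294v3 genome, at 24h (left) and 0h (right). Genes under 50% lie at or below the middle of the cloud, while genes at 100% span from 18.0 CPM per kb (rpl1603, 24h) to 3271 (rpl22, 0h).

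The genes share features that the symbol did not use. In the window of 250 bases before to 50 bases after the annotated start, read on both strands, the HomolD box CAGTCACA was found in 53 of 81 genes (65.4%), against 2.68% of all 5105 protein-coding genes, and the HomolE box in its core form in 20 (24.7%), against 1.25%. Both boxes are known from fission yeast ribosomal protein promoters. TATAAA, the core of the TATA box, was found in 23 (28.4%), against 48.1% of all protein-coding genes. Small-subunit ribosomal protein genes had HomolD in 61.8% and HomolE in 38.2%. The tested large-subunit genes with HomolD had a median log2 fold change of -0.19 and 3 of 48 called lower, and those without it had -0.23 and 2 of 25; among all tested features 12.8% were lower.

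Introns are present in 42 of the 81 genes. The 37 tested genes with an intron had a median log2 fold change of -0.29 with 4 called lower, and the 36 without had -0.15 with 1, against 12.8% of all tested features called lower. Another feature overlaps on the opposite strand in 23 genes. Of the 20 of these that were tested 4 were called lower, and of the 53 without such an overlap 1 was; with 12.8% of all tested features lower, counts this small are a description only. The overlapping partner of rpl3801, the acetyltransferase gene SPBC577.03c, had 1, 5 and 20 reads at 24h and 1, 6 and 2 at 0h, too few to be tested. The partner of rpl44, the SUMO ligase gene pli1, had 2, 13 and 43 reads at 24h and 13, 17 and 17 at 0h. It met the filter on low counts through the 0h libraries, so no direction is read from it. The partners of rpl1603 and rpl1802 did not pass the adjusted test (log2 fold changes of 0.20 and 0.88). The part of these overlaps in the results was not tested.

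Other genes of protein synthesis were read from the same fit, in which 13.1% of all tested features were higher and 12.8% lower at 24h. On TMM scaling, 2 of 52 tested small-subunit genes were lower at 24h, rps2501 at -2.04 (SE 0.45) and rps1902 at -1.44 (SE 0.38), 0 were higher and the median was -0.12. On library totals 5 were higher and 1 lower. Of 26 translation factor genes 1 was called higher and 1 lower, and the median was 0.32. The lower gene was tif211, for the alpha subunit of eIF2, at -1.23, and the other was tif11, for initiation factor eIF1A. On library totals 12 translation factor genes were higher and 0 lower. Ribosome assembly genes had 7 of 24 higher and 1 lower on TMM scaling, with a median of 1.10, and 17 higher and 0 lower on library totals. Among them nog2, a GTPase of ribosome export, was higher at 2.00, utp20, of the U3 snoRNP, at 1.70, and rrb1 was lower at -1.75. Of 3 tested RNA polymerase I genes 0 passed on TMM scaling, and all 3 were called higher on library totals. On library totals 33.1% of all tested features were higher and 5.54% lower. Only 2 of 39 mitochondrial ribosomal protein genes, mrpl24 and mrpl12, had enough reads to be tested. They met the filter through the 0h libraries, so no direction is read from them. In the same way tif11 and the RNA polymerase I gene rrn3 met it through the 24h libraries, so none is read from those. For rps2501 and rrb1 it was met mainly through the 0h libraries, so their direction is uncertain. The difference between the large-subunit genes and these lists was not tested.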

How the data were processed

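Small RNA was measured in 6 libraries, 3 per group. The authors deposited raw counts of reads per feature, and the submitters' processing notes name cutadapt, Bowtie2 2.1.0, HTSeq 0.6.1 and build ASM294v2. How strand and multiple placements were set is not given in the sources used here. Among 576 features nested inside one on the opposite strand, 492 (85.4%) had counts. For a feature lying within an exon of the other, HTSeq gives these only when strand is used. Nesting was judged by whole gene spans of ASM294v3, so introns and changed gene ends were not set apart. Whether sense or antisense reads were counted is not known.

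Of 6878 IDs, 6706 matched RefSeq names of ASM294v3 directly, 15 through an older ID or synonym and 157 did not. Window, motif and overlap checks were made wholly within ASM294v3, and since it is another build, no coordinates or gene sequences are given.

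Counts, without the HTSeq tally lines, were fitted in R 4.3.3 with edgeR 4.0.16 (scaled by TMM, low features dropped by filterByExpr at 10 reads, robust quasi-likelihood fit on group, two-sided). SE is the log2 fold change over the square root of F. Ratios of copies used an exact two-sided permutation test. The genes named are those called, the 5 highest in each group by CPM, gene copies, the stalk genes, the 3 highest and lowest fold changes, and up to 3 per other list. Members and lists were chosen with earlier results of these data known. Alternatives were other scalings, filters, DESeq2 1.42.0, summed copies, a replicate block and leaving out libraries. On simulated counts for the 24h against 0h comparison, the test recovered 0% of 187 genes at a log2 change of 1 (1718 features), 88.5% of 192 at 2 (1832 features), and 99% of 200 at 3 (1638 features). Only 200 genes were changed in each simulation, while the reported fit called 444 features. These shares are therefore not those of the reported fit, and the part of that difference in them was not tested.

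The labels do not say that replicates came from separate cultures, so p-values measure only the spread between these libraries, which may be technical. No within-group pair agreed within sampling noise. Intervals cover counting error only, since reads have no molecular identifiers.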

Additional observations from a re-analysis of the deposited data

Results flagged for a closer look

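Reads that HTSeq tallied as ambiguous, taken to overlap 2 features on 1 strand, were assigned to no gene. Their part of the uniquely placed reads was larger at 24h than at 0h. They were 1.04%, 1.84% and 1.19% at 24h, with a mean of 1.36%, and 0.0801%, 0.121% and 0.459% at 0h, with a mean of 0.220%. These tallies are outside the gene counts, and all 3 libraries of 24h were above all 3 of 0h. Of the large-subunit genes, rpl14 and rpl35 overlap another feature on their own strand and could lose reads to this tally, and how many was not measured.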

How the results depend on the processing

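The calls depended on the settings; that of rpl3801 was lost only on aligned reads, among the settings that did not sum it with rpl3802. With 5 lower and 0 higher in the reported fit, library totals gave 1 lower and 3 higher (rpl401, rpl702 and rpl1101), aligned reads 0 lower and 72 higher, no filter on low counts 1 lower and 2 higher, DESeq2 1 lower and summed copies 3 lower. Leaving out 1 library gave 1 to 3 lower and 0 to 0 higher. Of all features tested, the share called in either direction was 25.9% in the reported fit, 13.1% with no filter and 26.4% with summed copies. It was 11.4 to 23.7% with 1 library left out. With DESeq2 it was 6.14% of all features with reads, including those given no adjusted p. With no filter rpp40, set aside from the 81, was also called lower. The cause was not tested.

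The replicate number as a block gave 6 lower, with rpl31 and rpl39 gained and rpl1603 lost, and 1 higher (rpl702), where 32.1% of all features were called. Under the block 13 pairs of copies had differences of 1 sign. Every pair without overlap meets this looser condition, so the count could not be smaller than the reported one. The same share among genes of different families was not taken. Same-numbered libraries correlated in their deviations at 0.0121, 0.108 and 0.133, so the samples share only a number.

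The large-subunit median less that of all features was -0.18. It was 0.0733 with DESeq2, -0.05 with no filter, -0.44 with a minimum count of 30, and -0.47 to -0.11 when 1 library was left out. Pairs that did not overlap were 8 in the reported count and 9 to 14 when 1 library was left out. The 14 came without 0h replicate 2. This count could not fall, since pairs that do not overlap stay so with fewer libraries. The ratio of shares was 1.35, 1.13 to 1.48 when 1 library was left out, and 0.726 among protein-coding reads. That last setting, and the shares without rpl701, were chosen after seeing the data. On aligned reads, measured against the median of all features, 5 genes not called in the reported fit had the sign opposite to their TMM fold change, with 0.11 for rpl801, 0.10 for rpl13, 0.0374 for rpl26, 0.27 for rpl803 and -0.12 for rpl3201.

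With 48040 reads in the smallest library, changes near 1 log2 unit are at the limit of what was detected. None was recovered in simulated counts, where fewer genes were changed than were called in the data. The part of that difference in the recovery was not tested. The low level of rpl3801 rests on 5 reads in 1 library.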
